A study of Homo sapiens with 28 samples.

Results

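The respiratory chain of human cells is built from subunits encoded in 2 genomes, and its genes were followed here across early neural differentiation of wild-type and SOX1-/- H9 cells. Members were the protein-coding genes with the usual subunit names for complexes I to V, namely MT-ND, MT-CO, MT-CYB and MT-ATP genes of the mitochondrial genome and NDUF, SDHA to SDHC, UQCR, COX4 to COX8 and ATP5 genes of the nucleus. A mean TPM (a length-scaled share of the library's transcripts) of at least 1 over the 28 libraries was required. The rule gave 94 of the 58219 genes in the table, 13 mitochondrial and 81 nuclear. Of the nuclear members, 36 belong to complex I, 3 to complex II, 8 to complex III, 16 to complex IV and 15 to complex V, and 3 more carry an ATP5 name without being a plain subunit gene. In all, 101 genes matched the names. The 7 left out had mean TPM from 0 to 0.626 and included the tissue isoforms COX4I2 (0.0761) and COX6A2 (0.0134), while the lowest members were COX8C (1.11) and NDUFA4L2 (1.27). Of the lowest members, 3 reached the minimum only through part of the libraries. The mean TPM was 0.746 for COX6B2 without the 4 ES libraries, 0.936 for COX8C without the 2 KO CT1.0 libraries of day 4 and 0.889 for NDUFA4L2 without the 12 libraries of day 8. Differences of these genes that rest on the libraries that admitted them are given as values, with no test. All 94 members passed the filter for testing, which asked for a TPM of at least 1 in at least 2 libraries and kept 27912 genes.

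Complexes I to IV of the mitochondrial inner membrane pass electrons from NADH and succinate to oxygen, complexes I, III and IV pump protons on the way, and complex V, the ATP synthase, uses the resulting gradient to make ATP. The mitochondrial genome encodes core subunits of complexes I, III, IV and V, complex II is wholly nuclear, and the nuclear and mitochondrial products must be assembled together. Mitochondrial mRNAs are cut from long transcripts of the whole circular genome and most receive short poly(A) tails, MT-ND6 being the one that lacks a stable tail. Pluripotent cells are known for high glycolysis, and differentiation is known to change the balance between glycolysis and respiration.

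H9 is an established human embryonic stem cell line. Poly(A)-selected RNA was sequenced from wild-type (WT) cells and from SOX1-/- cells (here KO), in which the transcription factor gene SOX1, an early neural marker, is disrupted. Each genotype was collected undifferentiated (ES, day 0) and on days 4 and 8 of neural differentiation, in cultures named IWP2, CT0.4 and CT1.0. The compound IWP2 inhibits WNT secretion, and neither the letters CT nor the unit of their number is explained in the sources used here. This makes 14 groups of 2 libraries: WT ES, KO ES, and for each genotype IWP2, CT0.4 and CT1.0 on day 4 and on day 8. Library numbers, here called lines, are 1 and 2 for WT but 26 and 48 for KO. No source used here says whether a number is a clone or a separate culture, so p-values measure the spread between these libraries only. The sources used here do not say how SOX1 was disrupted.

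The mitochondrial genes of complex V and complex I are shown first by sequence, because neighbouring members share bases and their reads cannot be fully told apart. On GRCh38, MT-ATP8 lies at chrM:8366-8572 and MT-ATP6 at chrM:8527-9207, both on the + strand. The 46 bases of chrM:8527-8572 belong to both genes and carry the start codon of MT-ATP6 and the stop codon of MT-ATP8. They are printed from the reference genome with no base in capitals.
MT-ATP8 and MT-ATP6 overlap: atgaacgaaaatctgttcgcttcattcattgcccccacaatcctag
MT-ND4L and MT-ND4 share 7 bases in the same way (chrM:10760-10766), and MT-ATP6 and MT-CO3 share 1.

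Of the nuclear members, 2 sets of paralogs are described at length over time: the subunit c genes of ATP synthase, ATP5G1, ATP5G2 and ATP5G3, and the complex IV pair COX6B1 and COX6B2. Their 250 bases before the RefSeq start (GRCh38.p14, gene strand, 5′ to 3′) are shown where the RefSeq table held them, to set the members of a paralog group side by side. Capitals mark 3 motifs, each searched on both strands: the NRF1 core GCATGCGC (reverse GCGCATGC), the ETS core CCGGAAG (reverse CTTCCGG) and the NF-Y box CCAAT (reverse ATTGG).
COX6B1, chr19:35648073-35648322, + strand: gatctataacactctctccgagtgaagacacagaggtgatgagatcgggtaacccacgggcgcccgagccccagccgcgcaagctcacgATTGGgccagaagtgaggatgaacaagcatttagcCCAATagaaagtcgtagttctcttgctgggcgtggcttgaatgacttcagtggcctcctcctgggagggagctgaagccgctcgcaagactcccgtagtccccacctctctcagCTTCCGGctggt
COX6B2, chr19:55354720-55354969, - strand: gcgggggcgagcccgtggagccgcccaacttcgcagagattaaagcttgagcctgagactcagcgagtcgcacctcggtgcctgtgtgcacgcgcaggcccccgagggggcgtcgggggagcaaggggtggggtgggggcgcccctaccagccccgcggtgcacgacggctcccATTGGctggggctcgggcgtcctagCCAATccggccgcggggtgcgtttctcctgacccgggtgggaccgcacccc
ATP5G1 (ATP5MC1 in RefSeq), chr17:48892537-48892786, + strand: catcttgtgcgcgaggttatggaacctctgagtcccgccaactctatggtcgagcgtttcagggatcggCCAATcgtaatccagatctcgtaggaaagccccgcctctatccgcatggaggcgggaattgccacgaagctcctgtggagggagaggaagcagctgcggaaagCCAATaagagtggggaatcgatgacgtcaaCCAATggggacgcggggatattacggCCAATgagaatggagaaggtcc
ATP5G2 (ATP5MC2 in RefSeq), chr12:53676084-53676333, - strand: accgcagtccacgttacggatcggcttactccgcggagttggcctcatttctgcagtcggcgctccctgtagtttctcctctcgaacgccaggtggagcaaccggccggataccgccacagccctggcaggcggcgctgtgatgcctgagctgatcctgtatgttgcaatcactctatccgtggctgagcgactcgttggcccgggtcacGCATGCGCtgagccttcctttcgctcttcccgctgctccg
ATP5G1 held 4 CCAAT boxes and ATP5G2 1 NRF1 core, while COX6B1 held 2 CCAAT boxes and 1 ETS core and COX6B2 2 CCAAT boxes. Windows were found for 64 of the 81 nuclear members. The NRF1 core was in 11 of these (17.2%), against 3.70% of 15842 protein-coding windows of the same length and 2.81% of all 27305. The ETS core was in 15 (23.4%), against 11.8% and 8.82%, and CCAAT in 21 (32.8%), against 34.5% and 33.0%. Median GC content of the members' windows was 60.8%, against 62.4% for protein-coding genes. These are letter matches in 1 window per gene and describe no binding. The RefSeq starts differ from the GENCODE coordinates given below for the subunit c genes. The ATP5G2 window lies wholly within that gene's GENCODE span, and the ATP5G1 window overlaps the beginning of its span.

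The targeted gene checked the labels in part. SOX1 was at most 3.08 TPM in all 14 KO libraries, and reached 84.1 and 98.0 TPM in WT CT1.0 on day 4 and 72.1 and 79.4 on day 8. In IWP2 on day 4 the 2 WT libraries (0.907 and 0.990 TPM) and the 2 KO libraries (0.410 and 1.14 TPM) overlapped, so SOX1 does not separate the genotypes there. Summed TPM of the pluripotency markers POU5F1, NANOG, LIN28A, DPPA4 and ZFP42 was 3665 to 3813 in the 4 ES libraries and 483 to 1108 later, when LIN28A made up most of it. The neural progenitor markers SOX2, PAX6, NES, SOX3 and HES5 summed to 221 to 299 TPM in the ES libraries and 420 to 1392 TPM later. Of these, SOX2 had group means of 95.8 to 438 TPM after ES and PAX6 6.36 to 379, the lowest PAX6 being in CT1.0 on day 4. The mesendoderm markers summed to at most 4.74 TPM in every library. The 4 WT CT libraries of day 4 stood apart. They held fewer genes of at least 1 TPM (17694 to 18233, where the remaining 24 libraries held 18876 to 20338), and protein-coding genes took 94.08% to 94.76% of TPM, against 92.27% to 93.92%. KO against WT in CT0.4 and CT1.0 on day 4 rests on these libraries and cannot be formed without them. Counts of called members over time that use them are therefore also given for IWP2 alone. The lists of genes that work with the chain, described last, are not given for IWP2 alone. The nuclear genome holds copies of mitochondrial genes, of which 392 listed copies summed to 87.3 to 251 TPM per library, most of it MTATP6P1. The 154 listed pseudogenes of nuclear members summed to 55.8 to 140 TPM, and SDHA, whose pseudogene SDHAP1 averaged 20.5 TPM, is therefore uncertain.

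The 13 mitochondrial members took 4.34% to 10.9% of all TPM, with a median of 6.78%, and the 81 nuclear members 1.39% to 1.89%. Both shares were highest in ES cells. The mitochondrial share was 8.94 and 10.9% in WT ES and 10.7 and 10.8% in KO ES. On day 4 the WT libraries lay between 6.44% and 6.91% in all 3 cultures, below both ES libraries. KO libraries of day 4 were 7.48 and 6.82% in IWP2, 5.43 and 5.79% in CT0.4 and 4.44 and 4.34% in CT1.0. Thus the KO share was above the WT share in IWP2 and below it in both CT cultures, with no overlap. In CT1.0 the summed TPM of the 13 genes was 43933 ± 722 in KO and 68823 ± 391 in WT (SD, n = 2). On day 8 in CT1.0 it was 54474 ± 458 in KO and 67974 ± 745 in WT. In IWP2 on day 8 it was 70368 and 72546 in the KO libraries and 80114 and 77580 in the WT libraries, also with no overlap, and in CT0.4 it was 58682 and 64624 in KO and 64418 and 63814 in WT, which overlapped. In bulk RNA, fewer cells of a type and less RNA per cell cannot be told apart, and a TPM share also depends on every other gene in the library.

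**Figure D1:**
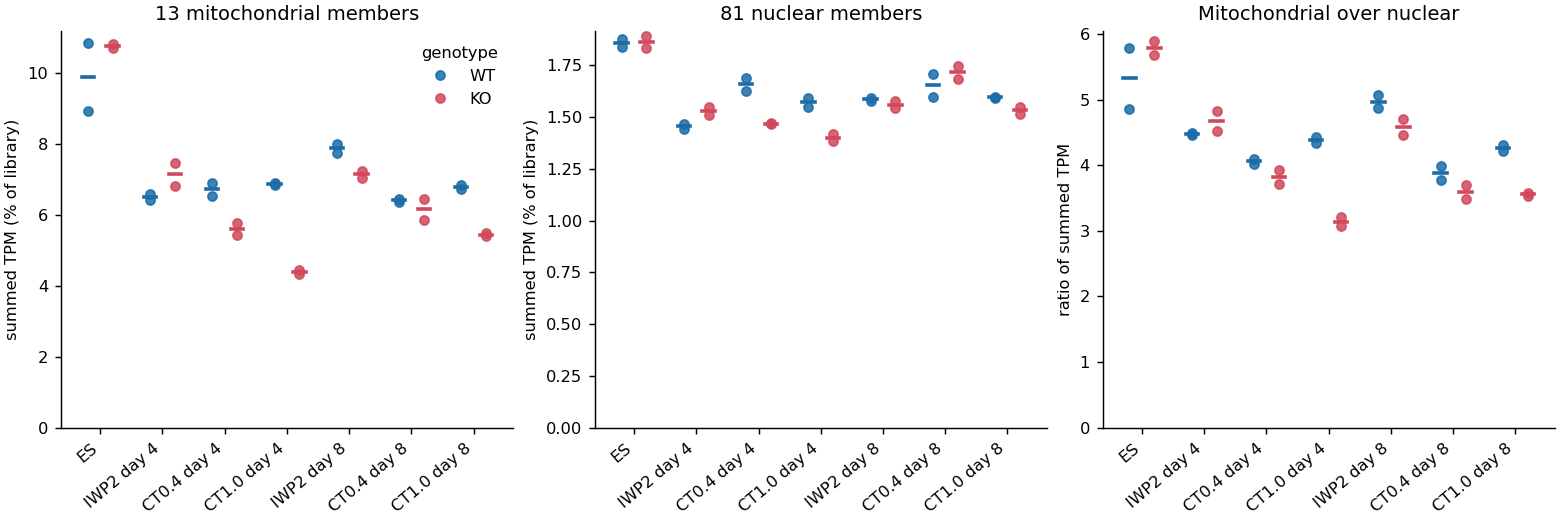
Summed TPM of the 13 mitochondrial members and of the 81 nuclear members, each as a percent of the library, and the ratio of the 2 sums (y axes), for the 7 cultures on the x axis. Each point is 1 library, WT in blue and KO in red, and the dash is the group mean. The ES libraries are highest in the first 2 panels, and the 2 KO CT1.0 libraries of day 4 are lowest in all 3, at 4.34% and 4.44% mitochondrial and a ratio of 3.07 and 3.21.

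The nuclear share varied over a narrower range. It was 1.84 and 1.87% in WT ES and 1.89 and 1.84% in KO ES, and 1.39% to 1.75% later. In CT1.0 on day 4 it was 1.39 and 1.42% in KO and 1.59 and 1.55% in WT. The ratio of mitochondrial to nuclear TPM was 3.21 and 3.07 there in KO and 4.34 and 4.43 in WT, so the mitochondrial sum was the further apart of the 2. Ribosomal protein genes, which compete for the same TPM total, took 26.3 and 26.9% in these KO libraries and 28.4 and 27.9% in WT. On day 8 in CT1.0 they took 30.3 and 27.8% in KO and 21.6 and 23.0% in WT, which is higher in both KO libraries. Their part in the lower mitochondrial share was not tested.

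Among the mitochondrial members, MT-CO1, MT-CO2 and MT-CO3, the core of complex IV, and MT-ND4L, a small complex I subunit, had the highest TPM. MT-CO1 ran from 10352 to 18234 TPM over the 28 libraries and MT-CO2 from 5861 to 21660. The lowest by their median over libraries were MT-ATP8 (628 to 3194 TPM), MT-ND5 (1148 to 3141) and MT-CYB (1138 to 3682). MT-ND4L and MT-ND4 overlap and are read from a shared mRNA, as are MT-ATP8 and MT-ATP6, so a ratio of TPM within either pair is no ratio of mRNA levels. The TPM of MT-ND4L was 3.25 to 5.24 times that of MT-ND4. MT-ATP8 was at 0.298 to 0.541 of MT-ATP6. MT-ND6 lies on the opposite strand next to MT-ND5, and no source used here says whether counting used strand, so the 2 cannot be separated with certainty.

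From ES to day 4, 12 of the 13 mitochondrial members fell in WT and 12 in KO, MT-CO1 being the exception in both. The comparison in each genotype takes the mean of its 3 cultures. Each line gives 3 of the 6 libraries of day 4, which are counted as separate replicates. The median log2 difference, on the log2(TPM + 1) scale used for every difference here, was -0.63 for the mitochondrial members and 0.01 for all genes in WT. In KO it was -1.0, against 0.14 for all genes. A gene is called where limma's adjusted p (Benjamini-Hochberg over all 27912 genes) was under 0.05. Of all genes, 19.9% were called lower and 16.2% higher in WT, and 19.1% lower and 22.8% higher in KO.

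MT-ND5, a proton-pumping subunit of complex I, was at 2672 and 2822 TPM in WT ES and 1408 and 1468 in IWP2, 1148 and 1216 in CT0.4 and 1301 and 1299 in CT1.0 on day 4. All 6 WT libraries of day 4 were below both ES libraries, with a log2 difference of -1.08 (SE 0.07, adjusted p = 2.45e-09). In KO the gene went from 2525 and 3141 to 1861 and 1975 in IWP2, 1432 and 1466 in CT0.4 and 1233 and 1198 in CT1.0, a difference of -0.91 (SE 0.07, adjusted p = 1.93e-08). MT-CO2, the copper-binding complex IV subunit that takes electrons from cytochrome c, was at 17996 and 21339 TPM in WT ES and 9688 to 10590 in WT on day 4. KO ES libraries held 21254 and 21660 and KO CT1.0 libraries 6048 and 5861. Its difference was -0.95 (SE 0.07, adjusted p = 8.67e-09) in WT and -1.42 (SE 0.07, adjusted p = 5.47e-11) in KO, and day 4 did not overlap ES in either. MT-ND6 differed by -1.05 in WT and MT-ATP6, a proton channel subunit of ATP synthase, by -0.75. In KO the other members with the greatest differences were MT-ATP8 (-1.61), MT-ATP6 (-1.48) and MT-CYB (-1.18), the cytochrome b of complex III. Whether the fall differed between the genotypes was not tested as such, and the WT and KO comparisons share no library.

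MT-CO1, the catalytic subunit of complex IV, was at 15254 and 14896 TPM in WT ES and 14014 and 13233 in KO ES. On day 4 it was at 13909 and 14297 in WT IWP2, 15997 and 14391 in WT CT0.4 and 16667 and 16423 in WT CT1.0. The groups overlapped, and the log2 difference was 0.02 (SE 0.07, adjusted p = 0.917) in WT and -0.04 (SE 0.07, adjusted p = 0.732) in KO. In KO it was 18234 and 14217 in IWP2 but 11439 and 10352 in CT1.0. With the other 12 lower, MT-CO1 went from 12.2% to 17.1% of mitochondrial mRNA TPM in ES cells to 20.8% to 25.7% on day 4. In IWP2 alone the KO difference of MT-CO1 was 0.24, above 0.

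Some mitochondrial members lost their WT call without line 2. That fit leaves 1 library in each WT group, so a lost call does not show that it rested on line 2. The mitochondrial share of WT ES was 8.94% in line 1 and 10.9% in line 2, while mitochondrial rRNA was at 7815 and 5545 TPM. Without line 2, 7 mitochondrial members were called lower in WT in place of 12, and the called members of both kinds were 37 in place of 57. MT-ND1, MT-ND2, MT-ND3, MT-CYB and MT-ATP8 lost their call in that fit. With the IWP2 cultures alone for day 4, which leaves out the libraries that stood apart, 11 were lower in WT and 12 in KO, and in KO MT-CO1 was then higher.

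**Figure D2:**
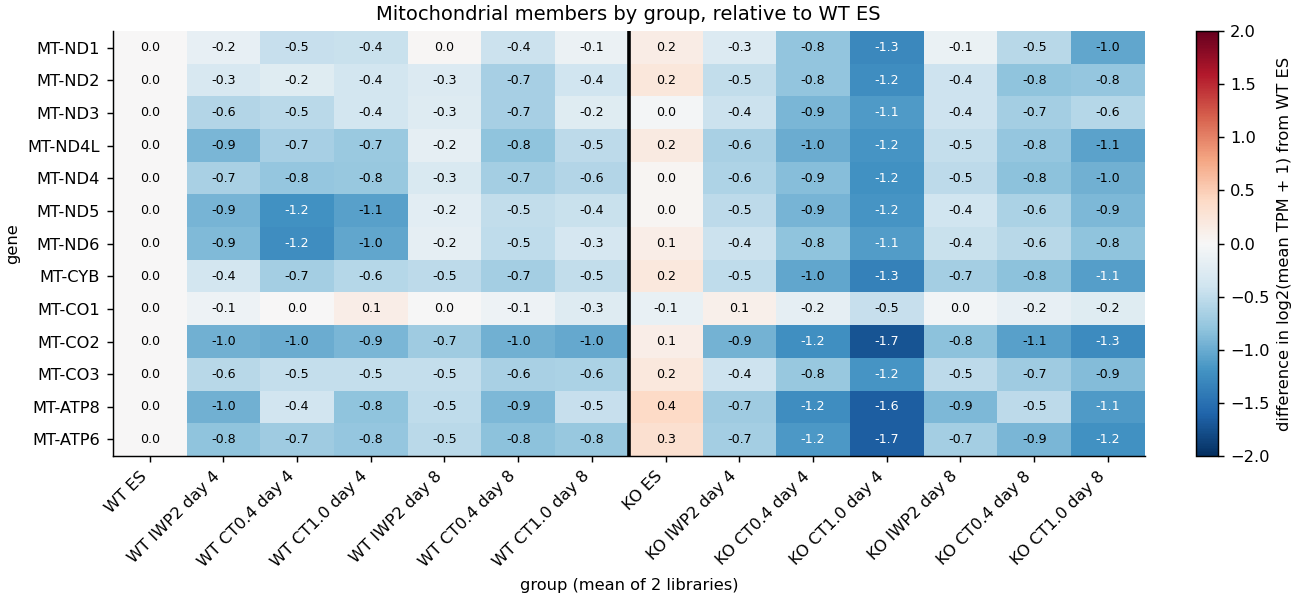
Log2 difference in mean TPM + 1 from WT ES for the 13 mitochondrial members (rows) in each of the 14 groups (columns, 2 libraries each), printed in each cell and shown by colour. Most cells are below 0 from day 4, and the row of MT-CO1 stays closest to 0.

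Of the 81 nuclear members, 38 fell and 7 rose from ES to day 4 in WT, and 51 fell and 3 rose in KO. Without COX6B2, COX8C and NDUFA4L2, 37 fell and 7 rose in WT, and 50 fell and 2 rose in KO. The median log2 difference was -0.19 in WT and -0.29 in KO. By complex, those that fell in WT were 15 of 36 in complex I, 2 of 3 in complex II, 4 of 8 in complex III, 10 of 16 in complex IV and 7 of 15 in complex V. In KO they were 21, 3, 6, 9 and 12. The complex IV counts of both genotypes include COX6B2, whose difference is a description with no test. Without line 2, 24 nuclear members were lower in WT, and without line 1 also 24. With IWP2 alone, 39 were lower in WT and 37 in KO.

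In complex I, NDUFS5, an accessory subunit, was at 943 and 909 TPM in WT ES and 474 to 567 on day 4 in WT, with no overlap and a log2 difference of -0.85 (SE 0.05, adjusted p = 4.54e-10). In KO it went from 931 and 924 to 447 to 538, a difference of -0.91 (SE 0.05, adjusted p = 1.73e-10). NDUFB4 differed by -0.68 in WT. Against this trend NDUFA6 (0.56), NDUFB11 (0.44) and NDUFB2 (0.30) rose in WT. NDUFB11, a membrane subunit, was at 69.3 and 77.2 TPM in WT ES and 93.0 to 106 on day 4, which did not overlap. No nuclear complex I member rose in KO.

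In complex II, SDHB, the iron-sulfur subunit of succinate dehydrogenase, was at 64.7 and 76.4 TPM in WT ES and 36.3 and 30.7 in IWP2, 34.4 and 29 in CT0.4 and 28 and 32.6 in CT1.0 on day 4. KO ES libraries held 69.8 and 65.7 TPM and KO libraries of day 4 held 31.9 to 39.9. Neither genotype overlapped between the days, with differences of -1.12 (SE 0.11, adjusted p = 2.11e-07) in WT and -0.95 (SE 0.11, adjusted p = 1.27e-06) in KO. SDHA, the flavoprotein that oxidises succinate, was at 66.6 and 61.8 TPM in WT ES and 39.0 to 55.1 on day 4, again with no overlap and a difference of -0.48 (SE 0.08, adjusted p = 6.50e-05). SDHC, a membrane anchor of the same complex, was at 168 and 172 TPM in WT ES and 157 to 177 on day 4 in WT, where it was not called (-0.01), and differed by -0.31 in KO.

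In complex IV, COX5A, an early assembly subunit, was at 352 and 373 TPM in WT ES and 169.7 to 235 on day 4, with no overlap and a log2 difference of -0.86 (SE 0.08, adjusted p = 3.33e-07). Its KO difference was -1.0 (SE 0.08, adjusted p = 4.43e-08). COX4I1, the ubiquitous form of subunit 4, ran from 529 to 660.3 TPM over all libraries and differed by 0.04 in WT and -0.03 in KO, neither called. ATP5S, a factor outside the enzyme's core that is not counted in complex V, differed by 0.79 in WT and 0.43 in KO. In complex V, ATP5E, the epsilon subunit, differed by 0.42 in WT. ATP5J2, among the highest members not called in WT, differed by -0.15, and ATP5O, its counterpart in KO, by 0.01. The nuclear members called higher in KO were ATP5S and ATP5G2. COX8C, also counted among those that rose, has no test here, since KO libraries of day 4 admitted it. COX8C was at 0 and 0.641 TPM in KO ES and 0.699 to 5.29 in KO on day 4, the highest value being in 1 of the CT1.0 libraries that admitted it.

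**Figure D3:**
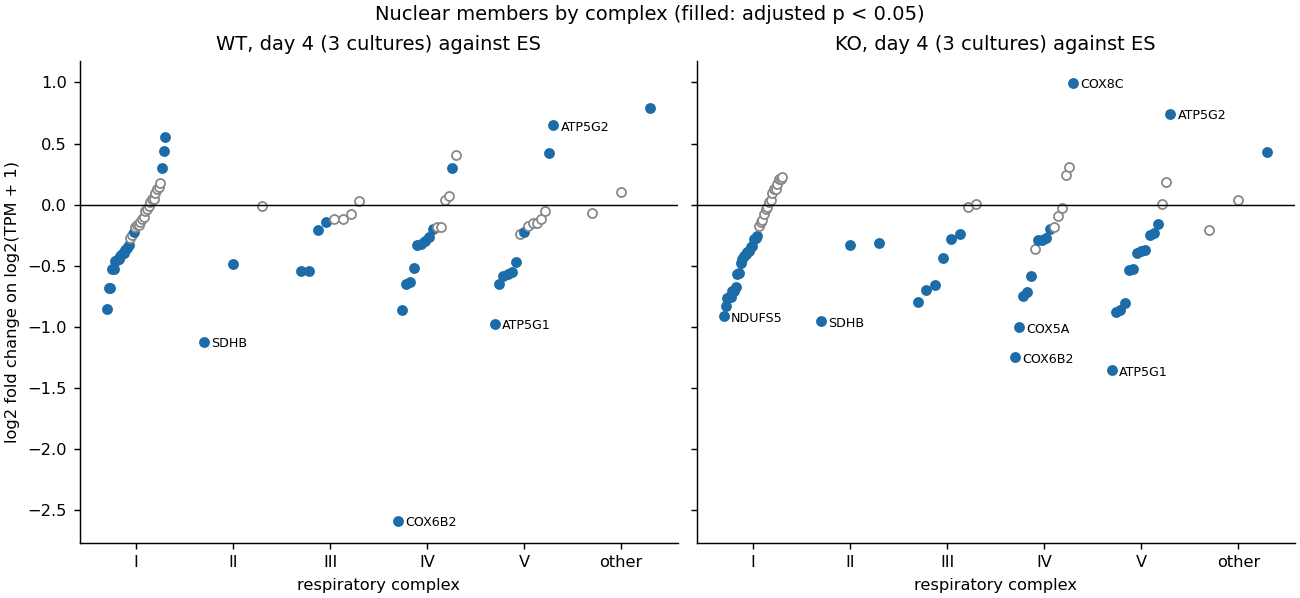
Log2 difference of day 4 (mean of 3 cultures) from ES for the 81 nuclear members (points), arranged by complex, in WT and in KO; filled points are called at adjusted p under 0.05. The points of COX6B2 in both genotypes and of COX8C in KO are filled but are descriptions with no test. Most points lie below 0 in both genotypes, with SDHB at -1.12 and -0.95, and ATP5G2 stands above 0 at 0.65 and 0.74.

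The 3 genes for subunit c of ATP synthase, which forms the rotating ring and has the same mature protein from each gene, moved apart. ATP5G2 (chr12:53632726-53677408, - strand) was at 765 and 666 TPM in WT ES and 979 and 969 in IWP2, 1201 and 1183 in CT0.4 and 1218 and 1201 in CT1.0 on day 4. It rose without overlap, by 0.65 (SE 0.06, adjusted p = 9.62e-08) in WT and 0.74 (SE 0.06, adjusted p = 1.66e-08) in KO. ATP5G1 (chr17:48892765-48895871, + strand) was at 226 and 206 TPM in WT ES and 225 and 239 in KO ES, and at 71.1 to 134 over the 12 libraries of day 4. Its differences were -0.97 (SE 0.18, adjusted p = 0.000284) in WT and -1.36 (SE 0.18, adjusted p = 7.80e-06) in KO. ATP5G3 (chr2:175176258-175184607, - strand) differed by -0.55 (SE 0.06, adjusted p = 1.19e-06) in WT and -0.88 (SE 0.06, adjusted p = 3.45e-09) in KO. ATP5G2 thus made up 52.7% to 59.1% of the 3 genes' TPM in the ES libraries and 76.2% to 81.4% on day 4. ATP5G1 went from 17.1% to 19.4% of it to 5.52% to 8.49%. On day 8 ATP5G2 held 70.8% to 74.9% and ATP5G1 5.61% to 9.64%.

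COX6B2, known as the testis isoform of complex IV subunit 6B, was at 12.6 and 5.11 TPM in WT ES and 4.34 and 4.2 in KO ES. All WT libraries of day 4 were at 0.235 to 0.703 TPM and KO libraries of day 4 ran from 0.466 to 2.57 TPM, below every ES library. COX6B2 is a member only through its ES level, so this difference is a description and has no test. The common isoform COX6B1 was at 321 and 275 TPM in WT ES and 239 to 281 in WT on day 4, which overlapped, and its difference was -0.20 (SE 0.06, adjusted p = 0.0175). Other alternative isoforms were low throughout: NDUFA4L2 reached at most 5.58 TPM and COX7A1, the heart and muscle form of subunit 7A, at most 7.63.

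**Figure D4:**
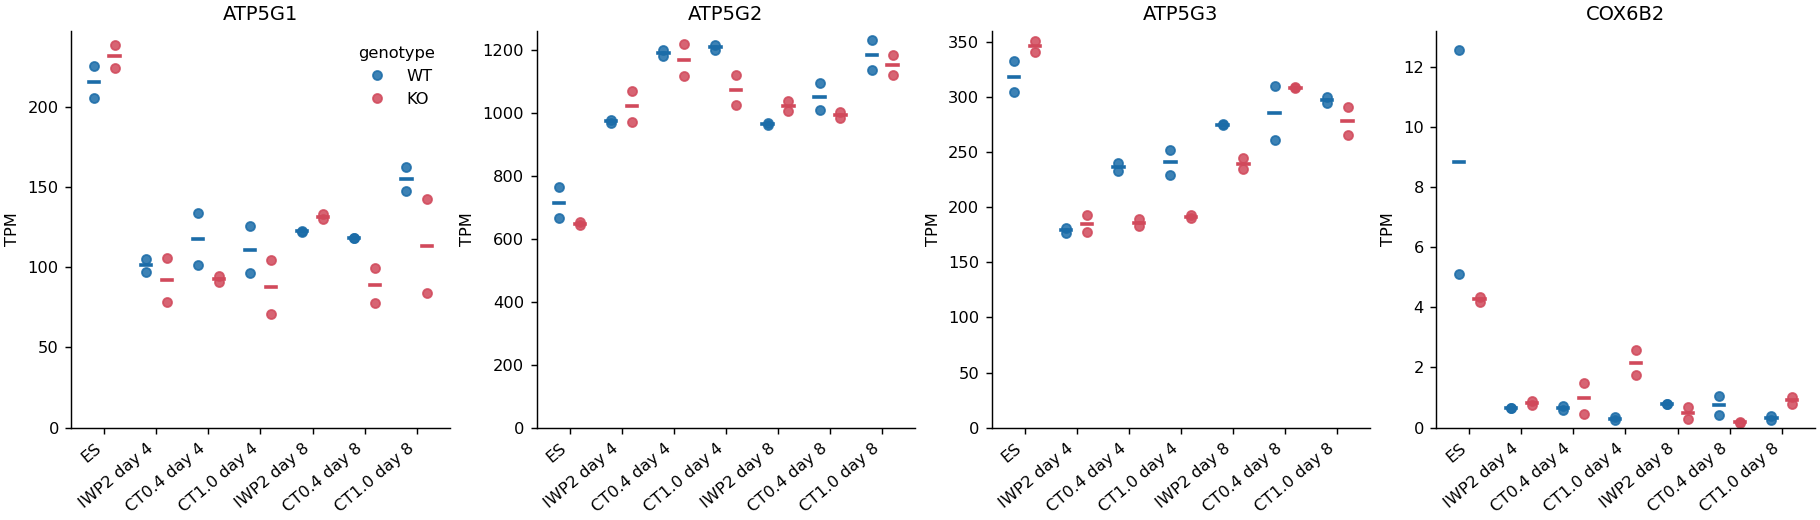
TPM of the subunit c genes ATP5G1, ATP5G2 and ATP5G3 and of COX6B2 (y axis, 1 panel each) in every library by culture (x axis), WT in blue and KO in red. ATP5G2 is lowest in the 4 ES libraries (643 to 765 TPM), while ATP5G1 (206 to 239) and COX6B2 (4.2 to 12.6) are highest there.

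From day 4 to day 8, 4 mitochondrial members rose and 1 fell in WT, and 24 nuclear members rose and 5 fell. Of all genes 24.9% rose and 5.86% fell, with a median of 0.16, so the WT rise lies close to that of all genes: the medians were 0.09 for mitochondrial and 0.07 for nuclear members. In KO 6 mitochondrial members rose and 0 fell, and 35 nuclear members rose and 3 fell. Of all KO genes 15.3% rose and 10.2% fell, with a median of 0.02, against 0.18 for mitochondrial and 0.16 for nuclear members. The direction in WT depends on the scaling: with median-ratio scaling, which moves the median of all genes from 0.16 to 0.01, 2 mitochondrial members rose and 6 fell, and 6 nuclear members rose and 31 fell. In KO the same scaling gave 3 and 0 mitochondrial and 24 and 5 nuclear members. With IWP2 alone, 4 mitochondrial and 16 nuclear members rose in WT and 0 fell, while in KO 0 mitochondrial and 7 nuclear members rose and 3 nuclear ones fell.

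MT-ND5 and MT-ND6 rose in WT under each of these settings. MT-ND5 was at 2440.3 and 2303 TPM in WT IWP2, 1941 and 1947 in CT0.4 and 2118 and 1929 in CT1.0 on day 8, above all 6 WT libraries of day 4 (1148 to 1468 TPM). Its log2 difference was 0.69 (SE 0.05, adjusted p = 2.67e-08) in WT and 0.23 (SE 0.05, adjusted p = 0.00261) in KO. MT-ND6 differed by 0.71 (SE 0.07, adjusted p = 4.72e-07) in WT, and MT-ND4L (0.27) and MT-ND4 (0.20) by less. MT-CO1 fell in WT, with a difference of -0.14 (SE 0.05, adjusted p = 0.0457), and was at 0.09 in IWP2 alone. In KO the mitochondrial members with the greatest rise were MT-ND3 (0.27), MT-CO2 (0.24), MT-ND5 (0.23) and MT-ATP6 (0.22).

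Several nuclear members that had fallen by day 4 rose by day 8. SDHA differed by 0.53 (SE 0.05, adjusted p = 1.10e-06) in WT, with 39.0 to 55.1 TPM on day 4 and 62.9 to 70.2 on day 8, with no overlap. ATP5G3 was at 177 to 252 TPM on day 4 and 261 to 311 on day 8 in WT, a difference of 0.40 (SE 0.04, adjusted p = 1.95e-06), and differed by 0.54 (SE 0.04, adjusted p = 7.35e-08) in KO. UQCR10, a small complex III subunit, differed by 0.44 in WT and 0.51 in KO, and NDUFA8 by 0.43 and 0.68. In WT UQCRC1 (0.44) and NDUFV1 (0.40) and in KO COX8A (0.47), NDUFB3 (0.46) and NDUFB6 (0.37) were next. UQCRH, the hinge protein of complex III, went the other way, with 638 to 817 TPM on day 4 and 462 to 592 on day 8 in WT, with no overlap and differences of -0.48 (SE 0.04, adjusted p = 7.53e-08) in WT and -0.37 (SE 0.04, adjusted p = 1.72e-06) in KO. Smaller falls in WT were those of NDUFB2 (-0.21), COX5B (-0.19), COX4I1 (-0.11) and ATP5O (-0.09), and in KO COX6B2 (-0.58) and ATP5S (-0.25) fell. ATP5G2 and COX7C, the highest members not called, differed by -0.07 and -0.10 in WT. Without WT line 1 the called members numbered 13 and without line 2 14, in place of 34 in WT. In KO they numbered 25 without line 26 and 21 without line 48, in place of 44.

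Between KO and WT, the chain showed no called member in ES, in IWP2 on day 4, in IWP2 on day 8 or in CT0.4 on day 8. With limma, an unadjusted p under 0.05 was reached there by 3 mitochondrial and 5 nuclear members in ES, 3 and 8 in IWP2 on day 4, 2 and 4 in IWP2 on day 8, and 0 and 10 in CT0.4 on day 8. Few genes of any kind were called in these 4 comparisons: 0.0502% higher and 0.168% lower in ES, 0.0287% and 0.0143% in IWP2 on day 4, 0.0430% and 0.0179% in IWP2 on day 8, and 0.158% and 0.258% in CT0.4 on day 8. The mitochondrial median was 0.16 in ES, 0.14 in IWP2 on day 4, -0.16 in IWP2 on day 8 and -0.10 in CT0.4 on day 8. No other setting tried called a member in them. With 2 libraries a group, a p that misses the threshold does not show that the genotypes were alike.

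In CT1.0 on day 4, 10 of the 13 mitochondrial members were lower in KO and 0 higher, where 2.49% of all genes were lower and 12.4% higher. The median log2 difference was -0.77, against 0.19 for all genes. All 13 genes were lower in both KO libraries than in both WT libraries. MT-ND2, a complex I core subunit, was at 1476 and 1556 TPM in KO and 2806 and 2769 in WT, a difference of -0.88 (SE 0.11, adjusted p = 6.26e-05). MT-ATP6 was at 1942 and 1818 TPM in KO against 3419.6 and 3470 in WT, a difference of -0.87 (SE 0.10, adjusted p = 3.22e-05). MT-CO2 was at 6048 and 5861 TPM in KO against 10590 and 10196 in WT, a difference of -0.80 (SE 0.09, adjusted p = 2.58e-05).

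MT-ND1, another complex I core subunit, was at 1707 and 1894 TPM in KO and 3262 and 3158 in WT, a difference of -0.83 (SE 0.13, adjusted p = 0.000580). MT-ATP8 was at 867 and 628 TPM in KO against 1289 and 1401 in WT, a difference of -0.86 (SE 0.26, adjusted p = 0.0349) that was lost whenever 1 line was left out. The remaining called genes were MT-CYB (-0.77), MT-ND3 (-0.77), MT-CO3 (-0.71), MT-CO1 (-0.60) and MT-ND4 (-0.45). MT-ND4L, MT-ND5 and MT-ND6 were not called. MT-ND5 was at 1233 and 1198 TPM in KO and 1301 and 1299 in WT, close together although not overlapping, with a difference of -0.10.

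The nuclear members of complexes I to V were lower in 17 cases and higher in 4 in the same comparison, and their median difference was -0.15. SDHC was at 109.6 and 105 TPM in KO and 172 and 177 in WT, a difference of -0.70 (SE 0.10, adjusted p = 0.000191). NDUFB9, a complex I accessory subunit, was at 110.0 and 115 TPM in KO against 186 and 176 in WT, a difference of -0.68 (SE 0.08, adjusted p = 4.00e-05). NDUFB11 was at 64.0 and 72.4 TPM in KO against 106 and 93.0 in WT, a difference of -0.54 (SE 0.08, adjusted p = 0.000522). Groups did not overlap in any of the 3. NDUFA9 (-0.61), NDUFB2 (-0.46) and COX6A1 (-0.44) were the next lower. SDHB, in the same enzyme as SDHC, was at 34.2 and 31.9 TPM in KO and 28 and 32.6 in WT, which overlapped. ATP5G2 (-0.17) and COX7C (-0.08) were the highest members not called.

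Those higher in KO were NDUFA5, COX7B, COX6B2 and COX8C. NDUFA5, which sits on the matrix arm of complex I, was at 102 and 93.4 TPM in KO and 66.7 and 60.7 in WT, a difference of 0.61 (SE 0.10, adjusted p = 0.000757). COX7B, a small complex IV subunit, was at 61.5 and 68.3 TPM in KO against 45.2 and 45.4 in WT, a difference of 0.51 (SE 0.09, adjusted p = 0.00121). COX6B2 was at 1.76 and 2.57 TPM in KO against 0.341 and 0.235 in WT, a difference of 1.29 (SE 0.31, adjusted p = 0.0112), and kept its call in 0 of the 4 fits that leave out a line. COX8C was at 5.29 and 1.53 TPM in KO against 0 and 0.858 in WT. These KO libraries are the ones through which COX8C became a member, so the difference has no test here. Without COX6B2, COX8C and NDUFA4L2, 17 nuclear members were lower and 2 higher.

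The size of this result depends on lines and scaling. The 31 called members include COX8C, whose difference has no test here. Against 31 called members with all lines, fits lacking WT line 1, WT line 2, KO line 26 or KO line 48 called 13, 18, 16 and 26. The 11 that were called in every such fit were MT-ND1, MT-ND2, MT-ND3, MT-CYB, MT-CO1, MT-CO2, MT-CO3, MT-ATP6, SDHC, NDUFB9 and COX7B. Median-ratio scaling moves the median of all genes from 0.19 to 0.03, and with it 12 mitochondrial and 46 nuclear members were lower and 0 and 3 higher. Neural progenitor markers summed to 497 and 702 TPM in KO and 853 and 959.5 in WT, and 2 of the 5 were lower and 0 higher. Surface ectoderm markers (KRT18, KRT8, TFAP2A, GATA3 and EPCAM) summed to 103 and 83.9 TPM in KO against 63.2 and 67.9 in WT, and 2 of the 5 were higher. The same markers summed to 462 to 530 TPM in the ES libraries, so they do not single out surface ectoderm here. The other lists also separated the genotypes by their sums, with no marker called. Pluripotency markers summed to 1108 and 904 TPM in KO and 869 and 837 in WT, neuronal markers to 86.9 and 101 in KO and 124 and 131 in WT, and neural crest markers to 53.5 and 77.0 in KO and 93.1 and 87.8 in WT. Mesendoderm markers summed to 1.79 and 1.04 TPM in KO and 0.894 and 0.432 in WT, where EOMES and SOX17 were at 0 in both libraries. The part of these differences in the lower respiratory chain was not tested.

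**Figure D5:**
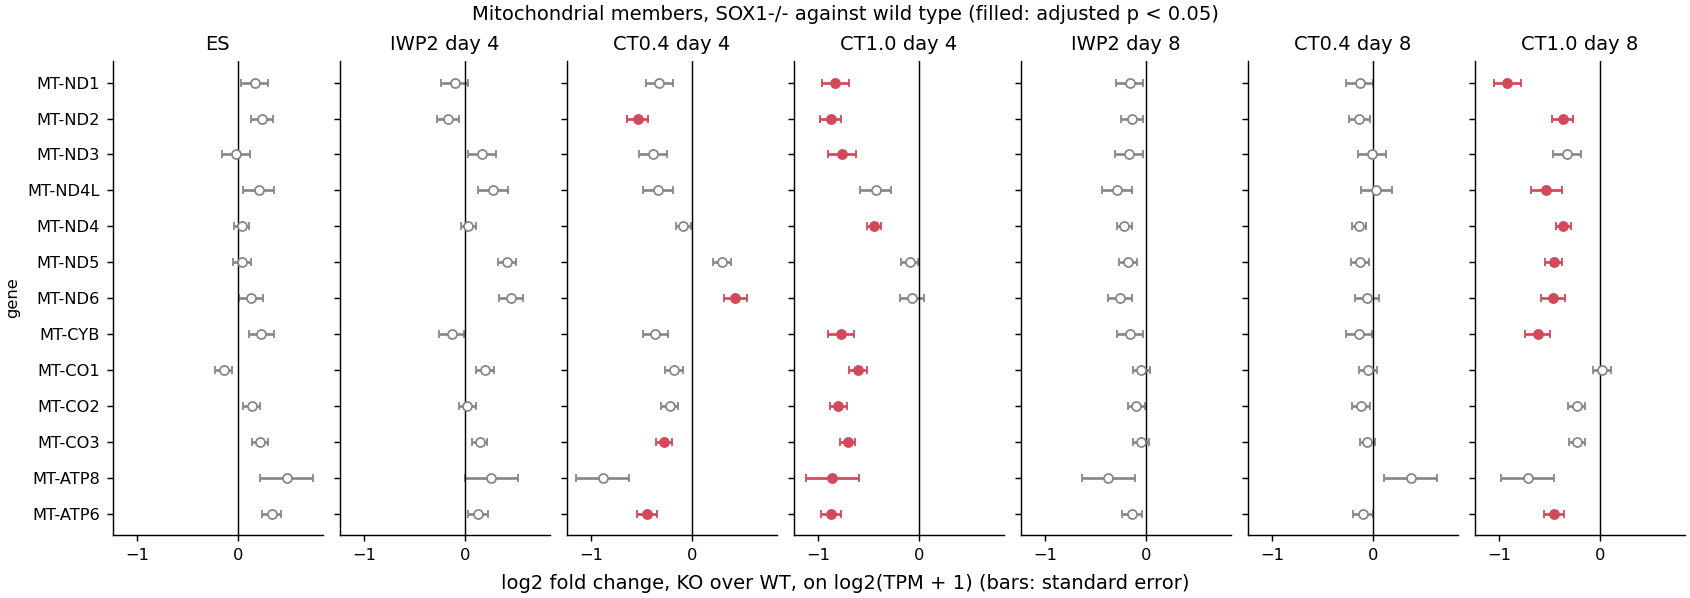
Log2 difference KO minus WT (x axis, with SE bars) for the 13 mitochondrial members (y axis) in each of the 7 cultures (panels, 2 libraries a group); filled points are called at adjusted p under 0.05. In CT1.0 of day 4 every point is below 0, down to -0.88 for MT-ND2, while ES and IWP2 of day 4 have points on both sides of 0 and none filled.

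On day 8 in CT1.0, 8 mitochondrial members were lower in KO and 0 higher, and 16 nuclear members were lower and 4 higher. Of all genes 9.96% were lower and 4.34% higher. The mitochondrial median was -0.46 and the nuclear one -0.06, against -0.02 for all genes. MT-ND1 was at 1887 and 2387 TPM in KO and 4174 and 3888 in WT, which did not overlap, with a difference of -0.92 (SE 0.13, adjusted p = 0.000350). MT-CYB was at 1288 and 1597 TPM in KO against 2377 and 2050.1 in WT, a difference of -0.62 (SE 0.13, adjusted p = 0.00385). MT-ND4L (-0.54), MT-ND6 (-0.47), MT-ND5 (-0.46), MT-ATP6 (-0.46), MT-ND2 (-0.37) and MT-ND4 (-0.37) made up the rest. MT-CO1 was at 13172 and 12288 TPM in KO against 12227 and 12904 in WT, which overlapped, with a difference of 0.02 (SE 0.09, adjusted p = 0.985).

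Lower nuclear members on day 8 in CT1.0 were led by complex I. NDUFB2 was at 158 and 172 TPM in KO and 239.8 and 250 in WT, a difference of -0.57 (SE 0.12, adjusted p = 0.00449). NDUFS6, a zinc-binding subunit, was at 64.1 and 67.2 TPM in KO against 99.7 and 95.8 in WT, a difference of -0.57 (SE 0.15, adjusted p = 0.0181), and NDUFS8 differed by -0.45. COX5A was at 144 and 180.0 TPM in KO against 235 and 233 in WT, a difference of -0.54 (SE 0.10, adjusted p = 0.00254). ATP5S differed by -0.50 and UQCRC1, a core protein of complex III, by -0.43. Higher in KO were UQCRB, a small complex III subunit, at 285 and 248 TPM against 196 and 188 in WT (0.47), COX7A2L (0.43), a factor that joins complexes III and IV, NDUFB5 (0.39) and NDUFA1 (0.39). ATP5G2 (-0.04) and COX7C (0.20) were not called.

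None of the 28 members called on day 8 in CT1.0 was called in all 4 fits that leave out a line. Fits lacking WT line 1, WT line 2, KO line 26 or KO line 48 called 0, 2, 5 and 26 members, and MT-ND1 was called in 3 of the 4. A fit of only the 4 libraries compared called 0. Median-ratio scaling gave 5 mitochondrial members lower and 0 higher, but 9 nuclear members higher and 2 lower, so the nuclear direction turns with the scaling. Neural progenitor markers summed to 420.4 and 705 TPM in KO and 1392 and 1308 in WT, with 4 of the 5 lower. Neuronal markers summed to 132 and 306 TPM in KO against 741 and 607 in WT, with 3 of the 5 lower. Surface ectoderm markers, a list that was highest in ES cells, summed to 89.1 and 69.5 TPM in KO against 43.5 and 52.7 in WT, with 2 of the 5 higher. Neural crest markers had 2 of 4 higher and 0 lower, while their sum was lower in KO, at 87.4 and 89.3 TPM against 112 and 117 in WT. Pluripotency markers summed to 533 and 518 TPM in KO and 536 and 483 in WT, which overlapped, and 1 of the 5 was lower. Mesendoderm markers summed to 0.471 and 0.147 TPM in KO and 0.370 and 0.115 in WT, also with overlap. The part of these marker differences in the chain's lower levels was not tested.

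In CT0.4 on day 4, 3 mitochondrial members were lower and 1 higher in KO, and 5 nuclear members lower and 1 higher. Of all genes 0.566% were lower and 3.67% higher. The medians were -0.33 and -0.19, against 0.13 for all genes. MT-ND2 was at 2017 and 2163 TPM in KO and 3144 and 2938 in WT, with no overlap and a difference of -0.54 (SE 0.11, adjusted p = 0.00875). MT-ATP6 (-0.45) and MT-CO3 (-0.28) were also lower. MT-ND6 was at 1589 and 1848 TPM in KO against 1188 and 1365 in WT and thus higher in both KO libraries, a difference of 0.43 (SE 0.12, adjusted p = 0.0485). NDUFB9 was at 118 and 131 TPM in KO against 179.7 and 174 in WT, a difference of -0.50 (SE 0.08, adjusted p = 0.00177). ATP5E (-0.46), NDUFC2 (-0.41), NDUFA6 (-0.40) and ATP5G3 (-0.35) were lower, NDUFV1, the NADH-binding subunit, was higher (0.32), and ATP5G2 (-0.03) and COX7C (-0.30) were not called. Leaving out WT line 1 or WT line 2 left 0 called members, KO line 26 2 and KO line 48 3, in place of 10, and a fit of only the 4 libraries compared called 0. Median-ratio scaling gave 8 mitochondrial and 36 nuclear members lower and 0 higher, with a median of all genes of 0.00 in place of 0.13. Neural progenitor markers summed to 638 and 803 TPM in KO and 618 and 668 in WT, which overlapped, and no marker of the lists was called here.

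Counting libraries without a test gives the same groups side by side. Both KO libraries were below both WT libraries for 1 of 13 mitochondrial and 17 of 81 nuclear members in ES, where 16.5% of all genes were so placed. They were below for 3 and 7 in IWP2 on day 4 (18.0% of all genes), 10 and 51 in CT0.4 on day 4 (11.0%) and 13 and 42 in CT1.0 on day 4 (13.1%). On day 8 they were below for 11 and 16 in IWP2 (14.5%), 5 and 10 in CT0.4 (15.3%) and 12 and 36 in CT1.0 (30.2%). They were above for 5 and 16 in ES (18.6%), 5 and 23 in IWP2 on day 4 (15.4%), 2 and 6 in CT0.4 on day 4 (33.7%) and 0 and 12 in CT1.0 on day 4 (41.1%). On day 8 they were above for 0 and 12 in IWP2 (15.0%), 1 and 24 in CT0.4 (19.9%) and 0 and 19 in CT1.0 (20.3%). In IWP2 on day 8 most mitochondrial members were thus below, at a median difference of -0.16 and with none called.

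The KO effect itself was compared between cultures and days. On day 4 the effect in CT1.0 was below that in IWP2 for 9 mitochondrial members and above it for 0, and for nuclear members below for 9 and above for 2, where 0.684% of all genes were below and 4.41% above. MT-ATP6 was at 3736 and 3614 TPM in KO and 3302 and 3434 in WT in IWP2, so the KO libraries were the higher there, and the effects differed by -1.0 (SE 0.14, adjusted p = 0.000735). MT-CO3 differed by -0.85 (SE 0.11, adjusted p = 0.000492), and MT-ND3 (-0.93) and MT-CO2 (-0.82) were also below. Among nuclear members SDHC (-0.70), NDUFB9 (-0.62), COX8A (-0.55), NDUFB11 (-0.53), NDUFC2 (-0.50) and COX6A1 (-0.45) had the lowest values, and COX7B (0.63) and NDUFA5 (0.55) were above. Fits lacking WT line 1, WT line 2, KO line 26 or KO line 48 called 3, 2, 6 and 10 members in place of 20. Median-ratio scaling, which moves the median of all genes from 0.21 to 0.03, gave 13 mitochondrial and 28 nuclear members below and 0 above.

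On day 8 only MT-ND1 (-0.76, SE 0.19, adjusted p = 0.0372) and the complex I core subunit NDUFS3 (-0.38, SE 0.10, adjusted p = 0.0422) were called for the same difference of effects, where 2.31% of all genes were below and 0.910% above. Neither was called without WT line 1, WT line 2 or KO line 26. Within CT1.0, the KO effect was less negative on day 8 than on day 4 for MT-CO1 (0.62, SE 0.12, adjusted p = 0.00822), MT-CO2 (0.57), MT-ND2 (0.50) and MT-CO3 (0.48). COX7A2L (0.64) and NDUFB11 (0.49) had a higher effect on day 8 as well, and ATP5S (-0.76) a lower one, where 0.885% of all genes were higher and 6.67% lower. Fits lacking either WT line called 0 members, and those lacking KO line 26 or KO line 48 called 1 and 3, in place of 7. Median-ratio scaling gave 7 mitochondrial and 24 nuclear members higher and 0 lower, and moved the median of all genes from -0.29 to -0.02.

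Within WT, the CT cultures were compared with IWP2, and both comparisons of a day share the same 2 IWP2 libraries. On day 4 in CT0.4, 15 nuclear members were higher and 4 lower than in IWP2, and 0 mitochondrial members higher and 1 lower, where 2.45% of all genes were higher and 10.6% lower. NDUFV1 was at 70.3 and 66.3 TPM in CT0.4 and 106 and 121 in IWP2, a difference of -0.72 (SE 0.09, adjusted p = 3.33e-05). COX7C, a small complex IV subunit, was at 932 and 856 TPM in CT0.4 against 543 and 633 in IWP2, a difference of 0.61 (SE 0.12, adjusted p = 0.00200), and neither of the 2 genes overlapped between the cultures. Also higher were COX7A2L (0.59), UQCR10 (0.47), COX7A2 (0.46), ATP5E (0.45) and NDUFA4 (0.41), and also lower SDHA (-0.41), NDUFS8 (-0.39), MT-ND5 (-0.28) and NDUFB8 (-0.26). COX8A (-0.00) and ATP5J2 (0.18) were not called. Without WT line 1 the count was 1 and without WT line 2 it was 7, in place of 20.

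In CT1.0 on day 4, 10 nuclear members were higher and 6 lower than in IWP2 and 0 mitochondrial members were called, with 2 at an unadjusted p under 0.05 in limma, where 2.82% of all genes were higher and 17.2% lower. The lower members were all of complex I: NDUFA3 (-0.89), NDUFS8 (-0.74), NDUFS6 (-0.58), NDUFA5 (-0.43), NDUFB8 (-0.37) and NDUFV1 (-0.28). NDUFS8, an iron-sulfur core subunit, was at 92.2 and 95.3 TPM in CT1.0 and 156 and 157 in IWP2, a difference of -0.74 (SE 0.11, adjusted p = 0.000175) with no overlap. The members with the greatest rise were of complexes IV and V and NDUFA10: COX7A2L (0.61), ATP5A1 (0.44), ATP5G3 (0.43), COX7C (0.41), COX7A2 (0.39) and NDUFA10 (0.37), ATP5A1 being the alpha subunit of ATP synthase. COX8A (0.21) and ATP5J2 (0.08) were not called. Without WT line 1 the count was 0 and without WT line 2 it was 2, in place of 16. Both day 4 comparisons turn with the scaling: median-ratio scaling, which moves the median of all genes from -0.14 and -0.22 to 0.00, gave 45 nuclear members higher and 1 lower in CT0.4 and 40 higher and 1 lower in CT1.0, with 2 and 6 mitochondrial members higher and 0 lower. NDUFV1 in CT1.0 was then at 0.05.

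On day 8 in CT0.4, 5 mitochondrial members were lower and 0 higher than in IWP2, and 3 nuclear members were lower and 3 higher, where 5.89% of all genes were lower and 6.29% higher. The lower mitochondrial members were all of complex I. MT-ND4L was at 8259 and 8694 TPM in CT0.4 and 13374 and 12614 in IWP2, with no overlap and a difference of -0.62 (SE 0.15, adjusted p = 0.0115). MT-ND4 was at 2113 and 2078 TPM in CT0.4 against 2809 and 2614 in IWP2, a difference of -0.37 (SE 0.07, adjusted p = 0.00208), and MT-ND1 (-0.45), MT-ND2 (-0.40) and MT-ND5 (-0.29) made up the rest. Nuclear members lower were SDHB (-0.41), NDUFV2 (-0.28) and UQCRH (-0.26), and higher NDUFA2 (0.34), NDUFB8 (0.24) and COX4I1 (0.20). In CT1.0 2 mitochondrial members, MT-CO2 (-0.30) and MT-ND4 (-0.28), were lower and 0 higher, where 7.82% of all genes were lower and 2.97% higher. Nuclear members lower there were SDHB (-0.47), NDUFV2 (-0.44), NDUFA5 (-0.34) and NDUFS5 (-0.32), and higher NDUFB9 (0.35), ATP5G2 (0.29) and NDUFS3 (0.29). In both cultures the nuclear counts were near or below the shares of all genes. Without WT line 1 the counts were 0 in both cultures, and without WT line 2 they were 0 in CT0.4 and 1 in CT1.0, in place of 11 and 9. Without either KO line, which enters only through the shared variance, the CT1.0 count was 14. Median-ratio scaling left 4 mitochondrial members lower in CT0.4 and 0 in CT1.0, and in CT1.0 gave 9 nuclear members higher and 1 lower.

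Genes that work with the chain were described from lists of their own. CYCS, the cytochrome c that carries electrons from complex III to complex IV, differed from ES to day 4 by -1.13 in WT (adjusted p = 5.75e-06) and -1.65 in KO (adjusted p = 5.74e-08). CYC1, the cytochrome c1 of complex III that the name rule does not reach, differed by -0.82 in WT and -1.09 in KO, and was lower in KO than in WT in CT1.0 on day 4, by -0.41 (adjusted p = 0.00856). Of 78 mitochondrial ribosome genes, whose products translate mitochondrial mRNA, 40 fell and 4 rose in WT from ES to day 4 (median -0.29), and 62 fell and 3 rose in KO (median -0.54). Of 30 genes for mitochondrial DNA and RNA, 13 fell and 2 rose in WT and 16 fell and 3 rose in KO. Among them LRPPRC, which stabilises mitochondrial mRNA, differed by -0.60 and -0.49, and POLRMT, the mitochondrial RNA polymerase, by -0.47 and -0.40. TFAM, which packages mitochondrial DNA, fell by 0.40 in KO and was not called in WT. Of 49 assembly factors 17 fell and 6 rose in WT and 23 fell and 8 rose in KO. Over all genes, 19.9% fell and 16.2% rose in WT, and 19.1% fell and 22.8% rose in KO.

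Comparing KO with WT on day 4 of CT1.0, where 2.49% of all genes were lower and 12.4% higher, the mitochondrial ribosome list had 15 of 78 lower and 3 higher. The list of DNA and RNA genes had 1 of 30 lower and 5 higher, which lies near the shares of all genes, and POLRMT was among the higher with 0.51 (adjusted p = 0.00223). On day 8 in CT1.0, where 9.96% of all genes were lower and 4.34% higher, 28 ribosome genes were lower and 1 higher (median -0.25), among them MRPL40 (-0.71) and MRPL48 (-0.70), and 6 of the DNA and RNA list were lower and 0 higher, led by TWNK, the mitochondrial helicase (-1.06). Of 21 glycolysis genes, 0 were called between KO and WT in IWP2 on day 4 (median -0.04, with 1 at an unadjusted p under 0.05 in limma). Only 0.0287% of all genes were higher and 0.0143% lower there, so this count says little about the list. In CT1.0 14 of 21 were higher in KO and 0 lower (median 0.68), among them ENO2 (2.02), HK2 (1.85), SLC16A3 (1.7) and PDK1 (1.5), the kinase that restrains entry of pyruvate into the citric acid cycle. In CT0.4, where 3.67% of all genes were higher and 0.566% lower, 13 were higher and 1 lower (median 0.90), led by SLC16A3 (3.49), PDK1 (2.50) and SLC2A3 (2.21). From ES to day 4, 17 of the 21 fell and 0 rose in WT (median -1.27), while in KO 10 fell and 5 rose (median -0.15). Of all genes, 19.9% fell and 16.2% rose in WT over that time, and 19.1% fell and 22.8% rose in KO. The WT libraries of these CT comparisons are the ones that stood apart. The WT values over time of every list also use them and were not counted for IWP2 alone.

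Of 14 citric acid cycle genes 7 fell and 1 rose from ES to day 4 in WT and 8 fell and 1 rose in KO, and from day 4 to day 8 8 rose and 0 fell in WT and 9 rose and 0 fell in KO. Of all genes, 19.9% fell and 16.2% rose in WT from ES to day 4, and 19.1% fell and 22.8% rose in KO. From day 4 to day 8, 24.9% of all genes rose and 5.86% fell in WT, and 15.3% rose and 10.2% fell in KO. Of 13 genes taken to follow mitochondrial content, such as VDAC1 and HSPD1, 8 fell and 0 rose in WT from ES to day 4 and 10 fell and 0 rose in KO. On day 8 in CT1.0, 5 of these 13 genes were lower in KO and 0 higher, TOMM40 (-1.02) and HSPA9 (-0.71) among them. Of all genes 9.96% were lower there and 4.34% higher. The regulator PPARGC1A, a coactivator of mitochondrial genes, rose from day 4 to day 8 by 0.72 in WT and 0.94 in KO. It is the only gene of the regulator list described here, so the list as a whole is not described by it.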

How the data were processed

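Poly(A)-selected RNA was sequenced in 28 libraries of 14 groups, 2 a group. The deposited values are TPM per gene, made by the authors. Salmon 0.8.2, CASAVA 1.7 and hg38 are listed, per the submitters' processing notes, with no role or order. The annotation release, the strand setting and the platform of each library are not given in the sources used here. Every column sums to the same total, so sequencing depth is unknown, and a TPM keeps no counting error. The gene-level table has 58219 genes, and 275 gene names stand in more than 1 row and are not named here. The log2 values were computed from the deposited TPM as log2(TPM + 1).

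The genes with a TPM of at least 1 in at least 2 libraries (27912) were fitted in limma 3.58.1 (R 4.3.3) with 1 mean per group over all 28 libraries, 14 residual degrees of freedom and a trended prior. The 18 comparisons were KO against WT in each culture, CT against IWP2 in WT, day 4 against ES and day 8 against day 4 in each genotype, and 3 differences of KO effects. Adjusted p-values are Benjamini-Hochberg over all genes tested within a comparison, and a gene is called under 0.05. In CT1.0 on day 4, the procedure was tested on simulated data, where it called 95% of 100 genes altered by 1 log2 unit and 99% of 100 altered by 2 among 27912 genes, and 6.73% of its calls were false. The altered genes were drawn from those with a mean log2 of at least 5, so recovery of lower genes was not tested. The simulated libraries held no shift of all genes, no line effect and no libraries that stood apart. The false share of the real comparison is therefore not given by 6.73%. Tables and figures used Python 3.11.15, pandas 2.3.3, numpy 2.4.6 and matplotlib 3.10.9.

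Named were all 13 mitochondrial members, up to 4 called mitochondrial and 6 called nuclear members each way per comparison by size, the 2 highest nuclear members not called, the isoform pairs, and up to 4 called genes of each accompanying list with its main regulators. The members, lists and comparisons were chosen with earlier results of these data known, and the promoter motifs after the windows had been seen. Also run were median-ratio scaling, no filter, a pseudocount of 0.1, an equal sum without mitochondrial genes, a fit of only the groups compared, no variance trend, IWP2 alone, a replicate block and leaving out each line. Without the 4 WT CT libraries of day 4 was added after seeing the data. WT and KO share no line number, so line number could pair libraries only within a genotype. Member IDs matched GENCODE 29 in 94 of 94 cases without their version, which gave the gene coordinates.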

Additional observations from a re-analysis of the deposited data

Results flagged for a closer look

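The difference between KO and WT was itself tested for a difference between cultures and between days with limma, and the members past an adjusted p of 0.05 are given as the log2 difference of effects. On day 4, CT1.0 against IWP2, the mitochondrial members were MT-ND1 (-0.73, adjusted p = 0.0346), MT-ND2 (-0.71, adjusted p = 0.0128), MT-CO1 (-0.80, adjusted p = 0.00185), MT-CO2 (-0.82, adjusted p = 0.00115), MT-ATP6 (-1.0, adjusted p = 0.000735), MT-CO3 (-0.85, adjusted p = 0.000492), MT-ND3 (-0.93, adjusted p = 0.0119), MT-ND4 (-0.48, adjusted p = 0.0141) and MT-ND5 (-0.51, adjusted p = 0.0257). The nuclear members with a lower KO effect in CT1.0 were SDHC (-0.70, adjusted p = 0.00760), COX5B (-0.44, adjusted p = 0.0197), ATP5G3 (-0.37, adjusted p = 0.0477), NDUFB9 (-0.62, adjusted p = 0.00407), COX8A (-0.55, adjusted p = 0.0231), NDUFC2 (-0.50, adjusted p = 0.0456), COX6A1 (-0.45, adjusted p = 0.0356), ATP5O (-0.31, adjusted p = 0.0201) and NDUFB11 (-0.53, adjusted p = 0.0183). Those with a higher one were NDUFA5 (0.55, adjusted p = 0.0341) and COX7B (0.63, adjusted p = 0.00866). Of these, MT-ATP6 and MT-CO3 were called in all 4 fits that leave out a line. On day 8 the same comparison of cultures gave NDUFS3 (-0.38, adjusted p = 0.0422) and MT-ND1 (-0.76, adjusted p = 0.0372). Within CT1.0, day 8 against day 4, the members were COX7A2L (0.64, adjusted p = 0.0274), ATP5S (-0.76, adjusted p = 0.0358), NDUFB11 (0.49, adjusted p = 0.0221), MT-ND2 (0.50, adjusted p = 0.0499), MT-CO1 (0.62, adjusted p = 0.00822), MT-CO2 (0.57, adjusted p = 0.0113) and MT-CO3 (0.48, adjusted p = 0.0145). The day 4 values of CT1.0 use WT libraries that stood apart in genes detected.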

How the results depend on the processing

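Counts here are called members of both kinds, the value as reported first. For KO against WT in ES, in IWP2 on days 4 and 8 and in CT0.4 on day 8, 0 members were called under every alternative run. Leaving out each line in turn gave 0 to 3 for KO against WT in CT0.4 on day 4 (10), 13 to 26 in CT1.0 on day 4 (31) and 0 to 26 in CT1.0 on day 8 (28). In WT against IWP2 it gave 1 to 21 for CT0.4 on day 4 (20), 0 to 18 for CT1.0 on day 4 (16), 0 to 9 for CT0.4 on day 8 (11) and 0 to 14 for CT1.0 on day 8 (9). From ES to day 4 it gave 37 to 56 in WT (57) and 52 to 64 in KO (66), and from day 4 to day 8 13 to 37 in WT (34) and 21 to 37 in KO (44). For the differences of KO effects it gave 2 to 10 between cultures on day 4 (20), 0 to 2 on day 8 (2) and 0 to 3 between days (7). Leaving out a line leaves groups of that genotype with 1 library, which is then assumed to vary like the others.

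Median-ratio scaling gave 44 for KO against WT in CT0.4 on day 4, 61 in CT1.0 on day 4 and 16 in CT1.0 on day 8. It gave 48, 47 and 5 for WT CT0.4 on day 4, CT1.0 on day 4 and CT0.4 on day 8 against IWP2, and 41, 1 and 31 for the differences of KO effects on day 4, on day 8 and between days. With no filter the counts were 6 for KO against WT in CT0.4 on day 4, 6 for WT CT0.4 on day 8 and 1 for the difference on day 8. With no trend they were 3 for KO against WT in CT0.4 on day 4, 13, 2 and 4 for WT CT0.4 on day 4, CT0.4 on day 8 and CT1.0 on day 8, and 9, 0 and 2 for the differences. With only the groups compared they were 0, 13 and 0 for KO against WT in CT0.4 on day 4, CT1.0 on day 4 and CT1.0 on day 8, 11, 7 and 2 for the same 3 WT comparisons, and 10, 0 and 0 for the differences. With IWP2 alone, day 8 against day 4 gave 20 in WT and 10 in KO. Without the 4 WT CT libraries of day 4, WT CT0.4 on day 8 gave 7 and the difference on day 8 gave 0. The cause of these changes was not tested.

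With the replicate block (line number within genotype), the count was 4 for the difference of effects on day 8 and 11 for that between days, and every other count was within 1.5 times the reported one. Deviations of libraries with the same line number correlated at -0.09 to 0.08 in WT, none of 21 pairs over 0.1, and at -0.06 to 0.20 in KO, 8 of 21 pairs over 0.1. The libraries were not treated as paired in either genotype. In KO, line 26 was below line 48 in every culture for SOX1 and for the neural progenitor sum. In CT1.0 on day 4 these were 0.705 and 3.08 TPM, and 497 and 702 TPM. The p-values of the KO comparisons over time do not account for such a shared line.

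Directions turned for 14 values of named members. With median-ratio scaling, ATP5O from ES to day 4 in KO was at -0.13, NDUFV1 in WT CT1.0 against IWP2 on day 4 at 0.050, and from day 4 to day 8 in WT COX6A1 at -0.0063, COX7A2 at -0.068, MT-ATP6 at -0.16, MT-CO2 at -0.16, MT-ND4 at -0.018 and NDUFA4 at -0.19. With IWP2 alone, MT-CO1 was at 0.24 from ES to day 4 in KO and 0.095 from day 4 to day 8 in WT, COX7A2L at -0.10 from ES to day 4 in WT, and from day 4 to day 8 in KO ATP5S was at 0.052, COX6B1 at -0.093 and MT-ATP6 at -0.0029. Depth is unknown for TPM, so precision rests on the spread between the 2 libraries of a group, shared over all 14 groups, and on the trended prior.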
